A study of Mus musculus with 4 samples.

Results

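ATF4 is the transcription factor through which cells answer a shortage of amino acids or an overload of unfolded protein. The group described here holds 35 genes: factors that act with or after ATF4, regulators of the stress response, amino acid transporters, enzymes that make serine, one-carbon units, asparagine, proline and cysteine, and 3 secreted or surface proteins. They were taken by name as known ATF4 targets and amino acid supply genes. Of the 35, 34 had a probe set named for them alone, among 19505 genes tested. Pycr1, a proline synthesis enzyme, has no such probe set in the annotation used here. Macrophages were grown from femoral bone marrow over 8 days; the RPMI medium held 10% FCS and 20% L929 conditioned medium, which supplies the growth factor CSF1. The compared groups were 2 wild-type (WT) cultures and 2 Hem1 KO cultures, each from a different mouse and each on 1 array, with no other treatment. Hem1, encoded by Nckap1l, is the blood cell subunit of the WAVE complex, which drives actin branching. Which part of the gene was removed, and the strain, age and sex of the mice, are not given in the sources used here.

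ATF4 is made when a kinase phosphorylates the initiation factor eIF2, which slows most protein synthesis but lets Atf4 mRNA be translated better. Its activity therefore need not follow the level of its own mRNA. ATF4 pairs with C/EBP proteins on a short DNA element, the C/EBP-ATF response element, and turns on genes that import amino acids, build them and charge tRNAs. In macrophages the serine and arginine routes also feed nucleotide, glutathione and polyamine synthesis.

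The element is shown because it is the sequence through which ATF4 is known to act; of the 7 genes with the largest differences, 3 (Slc1a4, Nupr1 and Vldlr) had a match, Phgdh had none, and Cth, Slc7a5 and Aldh1l2 had no window to search. Its core was searched as TGATGNAA on both strands, from 250 bases before to 50 bases after each start site (RefSeq, GRCm38.p6). The form TGATGCAA is contained in it and was counted as well. Of the 35 genes, 30 had an entry, with 36 start sites among them. The core was in 10 of these 36 windows (27.8%), against 3.97% of 32851 windows of all genes, and TGATGCAA was in 7 (19.4%), against 0.895%. Genes of the group are known in part through this element, so this share is a description of how they were chosen. Each match is printed 5′ to 3′ on the strand that reads TGATGNAA, with the core in capitals and 11 bases on either side.
Slc1a4: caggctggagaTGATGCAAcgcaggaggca (chr11:20332699-20332728, + strand)
Nupr1: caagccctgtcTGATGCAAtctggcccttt (chr7:126625562-126625591, + strand)
Vldlr: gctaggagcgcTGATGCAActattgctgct (chr19:27216809-27216838, - strand)
Chac1: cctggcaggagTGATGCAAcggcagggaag (chr2:119351038-119351067, - strand)
Fgf21: gcctggacggaTGATGCAAtgggggggtct (chr7:45615611-45615640, + strand)
Pycr1: tgccctgtgtaTGATGCAAtgcacaaggct (chr11:120643833-120643862, - strand)
Atf3: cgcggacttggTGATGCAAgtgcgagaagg (chr1:191183425-191183454, + strand)
Asns: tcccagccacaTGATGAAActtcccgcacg (chr6:7693214-7693243, - strand)
Trib3: ccccgcccggcTGATGTAAacctgagctaa (chr2:152344028-152344057, + strand)
Pck2: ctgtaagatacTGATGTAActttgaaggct (chr14:55540152-55540181, - strand)

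In 9 of the 10 genes the core begins before the start site on the gene's strand, from 4 bases before it in Slc1a4 to 200 before the second start site of Vldlr, and in Trib3 it begins 14 bases after it. The 250 bases before the start site of Nupr1, the stress factor with the largest difference among the transcription factors, are given whole (chr7:126625471-126625720, - strand), read along the gene, so that the core appears in capitals as its reverse complement.
Nupr1 upstream: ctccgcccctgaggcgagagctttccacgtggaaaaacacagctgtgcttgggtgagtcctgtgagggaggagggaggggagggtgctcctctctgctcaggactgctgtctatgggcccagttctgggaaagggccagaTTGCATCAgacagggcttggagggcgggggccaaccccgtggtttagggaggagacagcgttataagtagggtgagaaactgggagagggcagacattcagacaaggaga

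All levels are log2 RMA values, read within a gene and not between genes. Differences are Hem1 KO minus WT with the standard error (SE) of limma, and n is 2 arrays per genotype throughout. A gene was called at a Benjamini-Hochberg adjusted p under 0.05 over all 19505 genes. With 2 arrays per genotype, the smallest two-sided p of an exact permutation test is 0.333. With an array left out, limma gave all genes of the group the same SE within a fit. Adjusted p-values of those fits therefore follow the size of the difference and not a gene's own spread. The median over all genes also shifts in those fits, and the differences and medians given for them below are not corrected for it. Background on an array was the 95th percentile of 1448 chemosensory receptor genes, 5.38 to 6.04. The replicate 1 arrays had higher medians over all genes (6.82 in WT and 6.95 in Hem1 KO) than the replicate 2 arrays (6.42 and 6.49), an offset that lies within both genotypes. Nckap1l read 11.37 and 11.11 in WT against 10.04 and 9.62 in Hem1 KO, above background on every array. It was lower in the Hem1 KO cultures (-1.41, SE 0.32, adjusted p = 0.0467 by limma). Stromal cell markers were higher in them: 6 of 9 measured were called, with a median difference of 1.94. On the log2 scale their summed level was 11.56 and 11.10 for WT against 13.41 and 13.02 for Hem1 KO, while Thy1 and Lum did not exceed background on any array. Macrophage markers had 0 of 9 called by limma (1 reached an unadjusted p under 0.05, downward), and their median was -0.30. In RNA of a whole culture, fewer cells of a type and less RNA per cell cannot be told apart. Nor can stromal cells in the culture and macrophages that make these transcripts. The part of the stromal signal in the values below was not tested.

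Limma called 0 of the 34 genes, against 1.61% of all genes called in either direction, 1.48% with Hem1 KO higher and 0.133% with Hem1 KO lower. Beneath that threshold the group leaned upward. Without adjustment, a p under 0.05 was reached by 8 genes upward and 0 downward, against 3.63% and 1.57% of all genes. The 8 were Cth, Nupr1, Slc1a4, Phgdh, Slc7a5, Vldlr, Aldh1l2 and Aldh18a1. The genotypes' arrays did not overlap in 15 genes with Hem1 KO higher (12.5% of all genes) and in 2 with Hem1 KO lower (13.3% of all genes). A fitted difference above 0 was found in 28 of 34 genes, against 51.8% of all genes, and one of more than 2-fold upward in 7, against 2.58%. The median difference was 0.38, beside 0.01 over all genes. Dropping Hem1 KO replicate 1 gave 0.14 for the group and -0.18 for all genes, and dropping Hem1 KO replicate 2 gave 0.64 and 0.21. Dropping WT replicate 1 gave 0.53 for the group and 0.16 for all genes, and dropping WT replicate 2 gave 0.29 and -0.13. In each case the group and all genes moved in the same direction. On all 4 arrays, the differences of single genes were uneven: the 7 largest lay between 1.02 and 1.61, while the other 27 lay between -0.77 and 0.77.

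**Figure D1:**
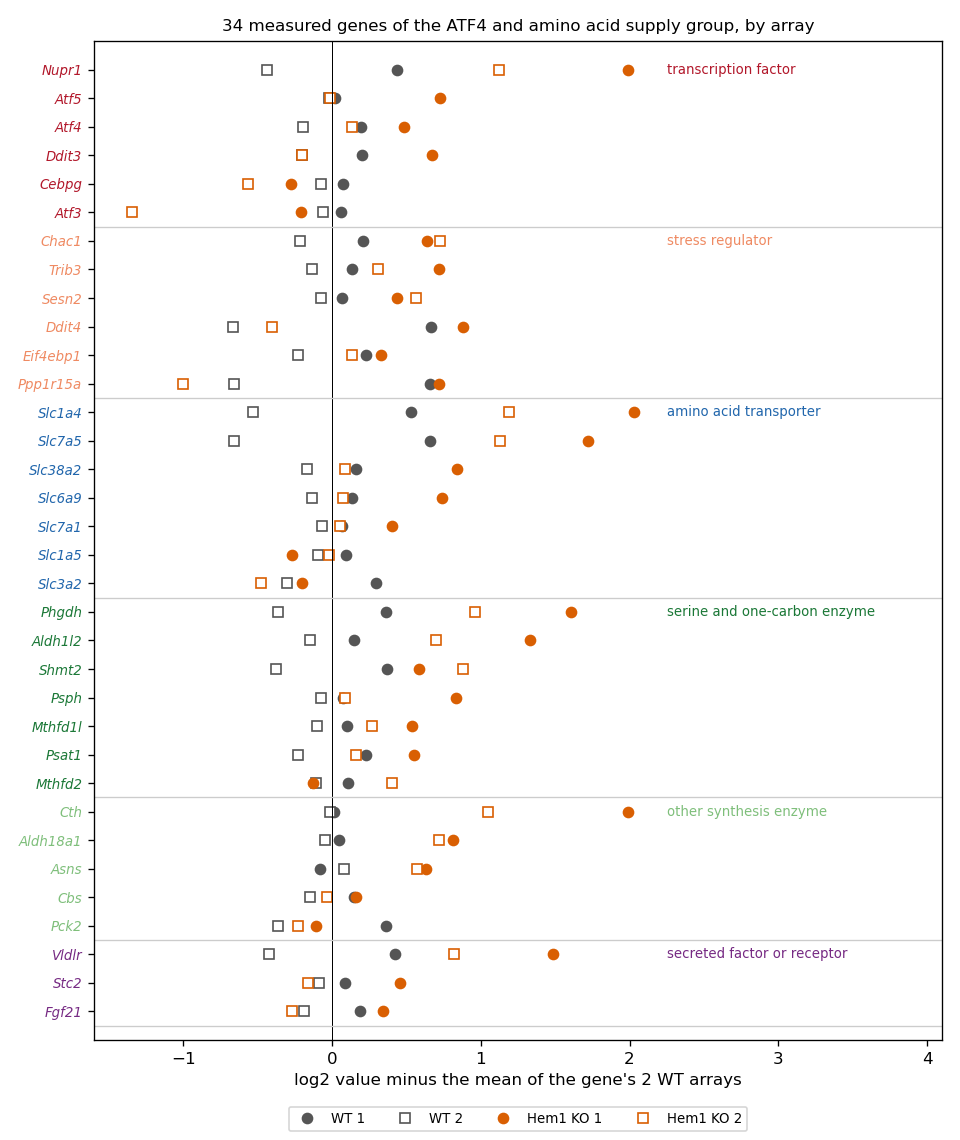
Value of each of the 34 measured genes on each array, as the log2 value minus the mean of that gene's 2 WT arrays, sorted by role and by difference. Grey marks are WT and orange marks Hem1 KO, with filled circles for replicate 1 and open squares for replicate 2; in genes such as Cth, Aldh18a1 and Asns both orange marks lie to the right of both grey ones, while in Ddit4 and Ppp1r15a the replicate 1 marks of both genotypes lie to the right.

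The median level of the 34 genes was 8.22 and 7.83 on the WT arrays against 8.62 and 8.10 on the Hem1 KO arrays, so WT replicate 1 lay above Hem1 KO replicate 2. Taken relative to each array's median over all genes, the level came to 1.40 and 1.41 for WT against 1.67 and 1.62 for Hem1 KO, with no overlap. Centring each array on that median shifts the difference of all genes by -0.10. Limma then called 5 genes of the group higher, against 2.05% of all genes: Cth, Nupr1, Slc1a4, Phgdh and Slc7a5. An unadjusted p under 0.05 was reached there by 9 genes of the group upward and 2 downward. After quantile normalization limma called 0 of the group, against 1.61% of all genes called higher. In that fit 11 genes of the group reached an unadjusted p under 0.05 upward and 0 downward. The shares of all genes at that unadjusted p were not taken for these fits. Adjusted p-values of the 5 genes called after centring ran from 0.0545 to 0.144 after quantile normalization.

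The transcription factors had a median difference of 0.27 over 6 genes. Nupr1, a small stress-induced chromatin protein that acts with ATF4, read 9.68 and 8.80 on the WT arrays against 11.23 and 10.36 on the Hem1 KO arrays. Both Hem1 KO values lay above both WT values, a 2.94-fold difference (1.56, SE 0.39, adjusted p = 0.0823). It exceeded that of 98.5% of all genes. Nupr1 passed the threshold when WT replicate 1 was left out (1.99, adjusted p = 0.00521) and when Hem1 KO replicate 2 was (1.99, adjusted p = 6.34e-05). Leaving out either of the other arrays gave 1.12, with an adjusted p of 0.806 for WT replicate 2 and 0.199 for Hem1 KO replicate 1.

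Atf4 itself read 11.08 and 10.69 in WT against 11.37 and 11.02 in Hem1 KO (0.31, SE 0.32, adjusted p = 1), with overlapping arrays. Atf5, a related factor also governed by translation, read 8.26 and 8.22 against 8.97 and 8.23 (0.36, SE 0.34). Ddit3, which encodes the cell death factor CHOP, read 10.03 and 9.63 against 10.50 and 9.63 (0.24, SE 0.36). In Atf5 and Ddit3 the excess sits on Hem1 KO replicate 1 alone, since the replicate 2 values of the genotypes were nearly equal. Ddit3 is the only gene of the group with more than 1 probe set, and the dimmer one gave 0.37.

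The other factors stood the other way. Atf3, a repressor and immediate early gene that ATF4 also induces, read 9.91 and 9.79 in WT against 9.65 and 8.51 in Hem1 KO (-0.77, SE 0.38, adjusted p = 1). Its arrays do not overlap, but the size rests on Hem1 KO replicate 2: the difference was -0.21 without it, and -1.34 without Hem1 KO replicate 1, where limma called it lower (adjusted p = 0.049; over all its alternatives the adjusted p ran from 0.032 to 1). Cebpg, a C/EBP partner of ATF4, read 9.63 and 9.48 in WT against 9.28 and 8.99 in Hem1 KO (-0.42, SE 0.31, adjusted p = 1). These were the 2 genes of the group whose Hem1 KO arrays both lay under both WT arrays.

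The stress regulators had a median of 0.37 over 6 genes and none at an unadjusted p under 0.05; leaving out a WT array moved the median to 0.61 (replicate 1) or 0.19 (replicate 2), and leaving out a Hem1 KO array to 0.22 or 0.68. Trib3, a pseudokinase that feeds back on ATF4, read 6.92 and 6.64 in WT against 7.50 and 7.09 in Hem1 KO (0.51, SE 0.32). Sesn2, which signals leucine shortage to the growth kinase mTORC1, read 7.32 and 7.18 against 7.68 and 7.81 (0.50, SE 0.31). In both genes the genotypes did not overlap, and neither difference passed (adjusted p = 1 for each by limma). Chac1, an enzyme that breaks down glutathione, read 5.47 and 5.04 in WT, at or below background on both arrays, and 5.90 and 5.98 in Hem1 KO, above background on 1 of them. The Hem1 KO mean over a WT mean in which any value under the background is raised to it gives 1.19-fold. As Hem1 KO replicate 1 also lay below its background of 6.04, this is not a lower bound for Chac1.

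The remaining regulators followed the arrays more than the genotype. Ddit4, an inhibitor of mTORC1, read 8.09 and 6.76 in WT against 8.31 and 7.03 in Hem1 KO (0.24, SE 0.47). Ppp1r15a, the phosphatase subunit that restores eIF2, read 8.96 and 7.64 against 9.02 and 7.30 (-0.14, SE 0.52). In both genes the values were high on the replicate 1 arrays and low on the replicate 2 arrays of both genotypes, by more than 1.2 in each. Eif4ebp1, which holds back cap-dependent translation, read 9.20 and 8.74 in WT against 9.31 and 9.11 in Hem1 KO (0.23, SE 0.32).

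The amino acid transporters held the largest difference of the group and also members without one (median 0.41 over 7 genes). That median was 0.07 without Hem1 KO replicate 1 and 0.74 without Hem1 KO replicate 2. Slc1a4, a carrier of serine, alanine and cysteine, read 6.48 and 5.42 on the WT arrays against 7.98 and 7.14 on the Hem1 KO arrays. This gene was above background on 1 of 2 WT arrays and on both Hem1 KO arrays, and the fitted difference was 3.05-fold (1.61, SE 0.41, adjusted p = 0.0833). Slc7a5, the light chain of the LAT1 exchanger for leucine and other large neutral amino acids, read 7.51 and 6.19 in WT against 8.57 and 7.98 in Hem1 KO, 2.69-fold (1.43, SE 0.42, adjusted p = 0.188). Neither gene's genotypes overlapped. The WT arrays were 1.06 apart in Slc1a4 and 1.32 apart in Slc7a5, so the size hangs on which WT array is used. Without WT replicate 1, Slc7a5 stood at 2.09. For Slc1a4 the WT array that then remains lies below background (fitted 2.14). Its bound there, at least 4.13-fold, holds against that array alone, since the WT array left out lay above background. Without WT replicate 2, Slc1a4 stood at 1.08 and Slc7a5 at 0.77. Without Hem1 KO replicate 2, Slc1a4 stood at 2.03 and Slc7a5 at 1.72. With Hem1 KO replicate 1 left out, Slc1a4 stood at 1.19 and Slc7a5 at 1.13.

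Slc3a2, the heavy chain that carries Slc7a5 to the cell surface, read 12.36 and 11.76 in WT against 11.86 and 11.58 in Hem1 KO (-0.34, SE 0.33, adjusted p = 1). The partners of the LAT1 exchanger thus had differences of opposite sign, and only that of Slc7a5 reached an unadjusted p under 0.05; the difference between the partners was not tested. Slc1a5, a glutamine carrier related to Slc1a4, read 10.11 and 9.92 against 9.75 and 10.00 (-0.14, SE 0.31). Slc38a2, a sodium-coupled carrier of small neutral amino acids, read 11.19 and 10.87 against 11.87 and 11.12 (0.46, SE 0.35). Slc6a9, a glycine transporter, read 8.60 and 8.34 against 9.21 and 8.54 (0.41, SE 0.34). Slc7a1, which imports arginine and lysine, read 8.33 and 8.20 against 8.67 and 8.32 (0.23, SE 0.32). The arrays of these 5 genes overlapped between the genotypes, and all 5 had an adjusted p of 1.

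All 7 enzymes of serine and one-carbon synthesis had a fitted difference above 0, against 51.8% of all genes, with a median of 0.46, and 5 had no overlap between the genotypes with Hem1 KO higher, against 12.5% of all genes. Phgdh, the first enzyme of serine synthesis, read 6.50 and 5.77 on the WT arrays against 7.74 and 7.10 on the Hem1 KO arrays. WT replicate 2 lay little above its background of 5.51. Phgdh differed 2.43-fold (1.28, SE 0.36, adjusted p = 0.159 by limma). It exceeded the difference of 98.0% of all genes and was called without Hem1 KO replicate 2 (1.61, adjusted p = 0.00336); leaving out a WT array gave an adjusted p of 0.0533 (replicate 1, 1.65) or 1 (replicate 2, 0.92), and leaving out Hem1 KO replicate 1 one of 0.45 (0.96). The next steps of the same route stood lower. Psat1 read 7.68 and 7.22 in WT against 8.00 and 7.61 in Hem1 KO (0.36, SE 0.33), with overlap. Psph, which releases free serine, read 8.35 and 8.20 against 9.11 and 8.37 (0.46, SE 0.34). Its genotypes did not overlap, by the narrow margin between 8.35 and 8.37.

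In mitochondria, serine is split by Shmt2, which read 9.07 and 8.33 in WT against 9.28 and 9.58 in Hem1 KO (0.73, SE 0.35, adjusted p = 0.994). Mthfd2, the next enzyme, read 8.71 and 8.49 against 8.47 and 9.01 (0.14, SE 0.33), and Mthfd1l, which releases formate, 7.42 and 7.22 against 7.86 and 7.59 (0.40, SE 0.32). Shmt2 and Mthfd1l did not overlap between the genotypes, while the Hem1 KO arrays of Mthfd2 enclosed the WT ones. Aldh1l2, a mitochondrial folate enzyme that makes NADPH, read 5.35 and 5.05 in WT, at or below background on both arrays, and 6.54 and 5.90 in Hem1 KO, above it on both. Its difference was at least 1.44-fold, with the WT values raised in the way given for Chac1 (fitted 1.02, SE 0.34, adjusted p = 0.339 by limma). Aldh1l2 was called without Hem1 KO replicate 2 (at least 1.79-fold, fitted 1.33, adjusted p = 0.0341) and not without any other single array (adjusted p = 0.616 to 1).

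**Figure D2:**
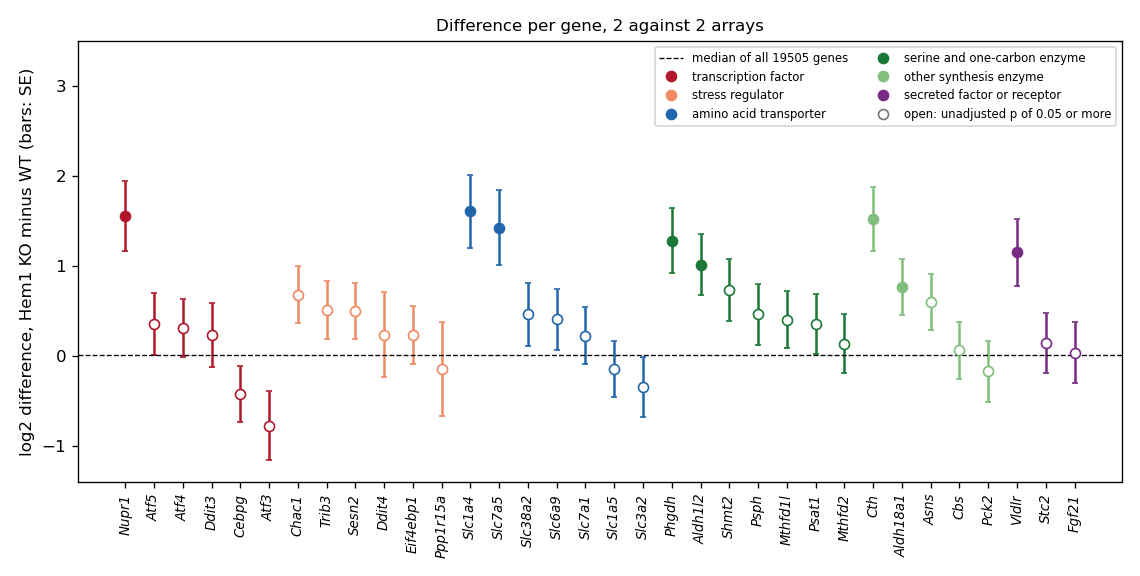
Log2 difference (Hem1 KO minus WT) of each gene with the SE of limma, coloured by role; filled points have an unadjusted p under 0.05 and the dashed line is the median of all genes, 0.01. The 8 filled points lie between 0.77 and 1.61, and Atf3 (-0.77) and Cebpg (-0.42) are the lowest points.

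The other synthesis enzymes had a median of 0.60 over 5 genes. Cth, which makes cysteine from cystathionine, read 6.16 and 6.14 on the WT arrays against 8.14 and 7.20 on the Hem1 KO arrays. Background on the WT arrays was 5.88 and 5.51, so the WT values lay little above it. Both WT values were nearly equal and both Hem1 KO values lay more than 1 above them, 2.87-fold (1.52, SE 0.36). This was the smallest adjusted p of the group by limma (adjusted p = 0.057). Cth was called without Hem1 KO replicate 2 (1.99, adjusted p = 6.1e-05) and not without either WT array (1.53 and 1.51, adjusted p = 0.105 and 0.153 for replicates 1 and 2) or Hem1 KO replicate 1 (1.05, adjusted p = 0.292). Cbs, the enzyme before Cth in that route, lay at or below background on all 4 arrays (5.20 to 5.51).

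Aldh18a1, the first enzyme of proline synthesis from glutamate, read 8.12 and 8.02 in WT against 8.89 and 8.79 in Hem1 KO, 1.70-fold (0.77, SE 0.31, adjusted p = 0.679). Asns, which makes asparagine and is a much used reporter of ATF4, read 9.79 and 9.95 against 10.50 and 10.44, 1.52-fold (0.60, SE 0.31, adjusted p = 1). These were among the steadiest genes of the group. Within each genotype the arrays were at most 0.16 apart, and leaving out any single array kept Aldh18a1 between 0.72 and 0.82 and Asns between 0.52 and 0.68. Pck2, a mitochondrial enzyme that makes phosphoenolpyruvate, read 8.18 and 7.46 in WT against 7.71 and 7.59 in Hem1 KO (-0.17, SE 0.34), and its Hem1 KO values lay between the WT ones.

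Of the secreted or surface proteins, Vldlr, a lipoprotein receptor that ATF4 can induce, read 6.51 and 5.66 on the WT arrays against 7.58 and 6.91 on the Hem1 KO arrays. WT replicate 2 lay little above its background of 5.51. The genotypes did not overlap (2.23-fold, 1.15, SE 0.37, adjusted p = 0.306 by limma). Vldlr was called without Hem1 KO replicate 2 (1.49, adjusted p = 0.01), and stood at 1.58 without WT replicate 1 (adjusted p = 0.0809), at 0.73 without WT replicate 2 (adjusted p = 1) and at 0.82 with Hem1 KO replicate 1 left out (adjusted p = 0.734). Fgf21, a stress hormone, read 5.95 and 5.58 against 6.11 and 5.50, just above background on each array (0.04, SE 0.34). Stc2, a secreted glycoprotein, lay below background on all arrays (3.96 to 4.58).

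**Figure D3:**
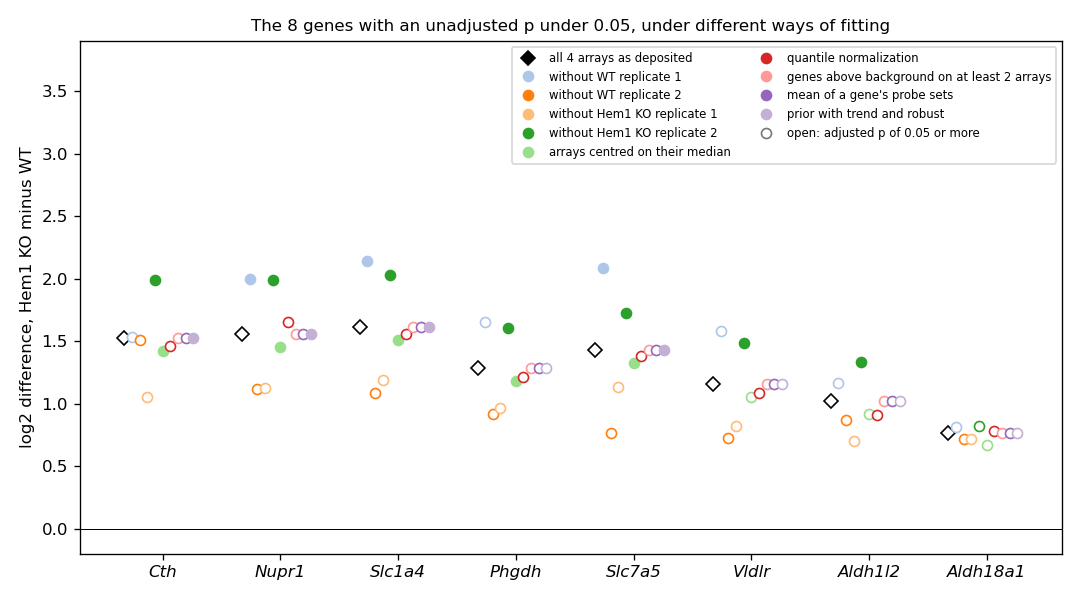
Log2 difference (Hem1 KO minus WT) of the 8 genes with an unadjusted p under 0.05, for all 4 arrays as deposited (black diamonds) and with an array left out, other scaling, a filter, averaged probe sets or another variance prior; filled marks have an adjusted p under 0.05 by limma. Marks are fitted values; those of Aldh1l2, and that of Slc1a4 without WT replicate 1, are against WT arrays below background. Every mark lies above 0, and none is filled where WT replicate 2 or Hem1 KO replicate 1 was left out.

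Set against the printed sequences, the 9 measured genes with TGATGNAA had a median difference of 0.60, from -0.77 (Atf3) to 1.61 (Slc1a4), and 7 of 9 lay above 0. Among them, the 6 with TGATGCAA had a median of 0.92 over the same range, and 5 of 6 lay above 0. The 20 with an entry and no match in this window had a median of 0.33, from -0.42 to 1.28 (Phgdh), and 17 of 20 lay above 0. The range of the genes with TGATGNAA is that of the whole group, while that of the 20 without a match is narrower at both ends. The difference between these sets was not tested. Fgf21 carries TGATGCAA and had no difference beyond its error, and Phgdh has no match here and was among the 7 largest. For Cth, Slc7a5, Aldh1l2, Slc1a5 and Eif4ebp1 no window was searched, and these 5 had the highest median, 1.02, with 4 of 5 above 0.

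The wider pathway was read from 7 further lists. Of their 111 genes, 99 were measured, and limma called 0, against 1.61% of all genes. An unadjusted p under 0.05 was reached by 2 upward and 1 downward, against 3.63% and 1.57% of all genes. The genotypes' arrays did not overlap in 18 upward and 19 downward, against 12.5% and 13.3% of all genes. The median difference of the 99 was 0.00, and 49 of 99 lay above 0, against 51.8% of all genes. The kinases and subunits of eIF2, which sit upstream of ATF4, had a median of 0.00 over 7 genes. The lowest p there belonged to Eif2ak1, the heme-regulated kinase (-0.45, SE 0.31), and Eif2ak4, the kinase that senses uncharged tRNA (-0.39, SE 0.32), both lower on each Hem1 KO array than on either WT array and both at an adjusted p of 1.

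Cytosolic tRNA synthetases, many of which ATF4 also induces, had a median of 0.11 over 18 genes, with 7 free of overlap upward and 2 downward, against 12.5% and 13.3% of all genes. Gars, the glycine enzyme, read 10.84 and 10.75 in WT against 11.32 and 11.20 in Hem1 KO (0.47, SE 0.31), and Tars, the threonine enzyme, stood at 0.46 (SE 0.32), both at an adjusted p of 1. The 16 genes of the unfolded protein response outside ATF4 had a median of 0.04. Dnajb9, a chaperone partner of the endoplasmic reticulum (-0.52, SE 0.37), and Herpud1, which serves protein degradation there (0.54, SE 0.39), had the smallest p, with overlapping arrays.

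Among 20 other amino acid transporters the median was -0.02. Slc7a6, a light chain related to Slc7a5, stood at 0.78 (SE 0.33, adjusted p = 0.784) and Slc16a10, a carrier of aromatic amino acids, at -0.75 (SE 0.34, adjusted p = 0.912). The 10 other folate and methionine enzymes had a median of 0.09, with Gldc (0.30, SE 0.34, below background) and Mthfd2l (-0.30, SE 0.36) at the smallest p. Of 11 enzymes of arginine, glutamine and branched-chain amino acids, Bcat1, the cytosolic aminotransferase of leucine, isoleucine and valine, had the largest difference. Its values were 6.96 and 6.52 in WT against 9.24 and 7.77 in Hem1 KO, 3.40-fold (1.76, SE 0.43, adjusted p = 0.0689), in a list with a median of 0.05; Asl, of arginine synthesis, stood at -0.40 (SE 0.31). Genes through which mTORC1 senses amino acids had a median of -0.19, with 15 of 17 under 0, against 9392 of all 19505 genes. Their arrays did not overlap in 6 genes with Hem1 KO lower and in 1 with Hem1 KO higher, against 13.3% and 12.5% of all genes. The smallest p belonged to Sesn1 (-0.70, SE 0.35) and the GTPase Rragd (-0.63, SE 0.33), each at an adjusted p of 1.

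**Figure D4:**
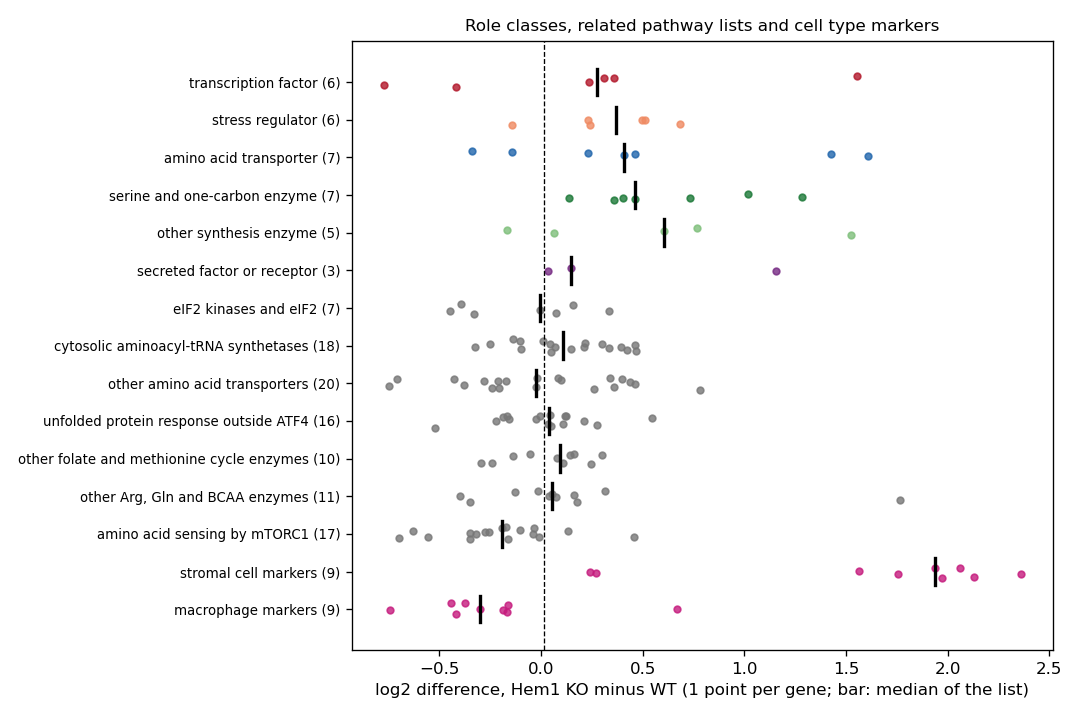
Log2 differences (Hem1 KO minus WT), 1 point per gene, for the 6 role classes, 7 related pathway lists and 2 sets of cell type markers, with the number of genes in parentheses, a bar at each median and a dashed line at the median of all genes. The role classes have medians of 0.15 to 0.60, the pathway lists -0.19 to 0.11, stromal cell markers 1.94 and macrophage markers -0.30.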

How the data were processed

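RNA of 4 macrophage cultures was measured on 1 array each. The authors deposited log2 values per probe set. The submitters' processing notes name RMA, without version or settings, and the log2 scale was read from the values (2.70 to 14.0). Software, annotation and build are not given in the sources used here. In all, the table has 29129 rows: the platform annotation gives 1 gene for 19572 of them, several for 0 and none for 9557, which include the controls. The brightest probe set per gene over all arrays was kept (19505 genes). The test was limma 3.58.1 (R 4.3.3; lmFit, then eBayes; genotype as the only term, two-sided, Benjamini-Hochberg over all genes, 11.2 prior degrees of freedom). The deposited values were not rescaled, and the number of arrays limits the precision. Genes above background on at least 1 array were described by array. In each further list the 2 genes with the smallest p were named. The genes, lists, background level and tests were chosen with earlier results of these data known. Promoter windows are from RefSeq (GRCm38.p6). The fit was tested on simulated data with planted differences larger than any in this group and no offset between replicates. That test therefore does not cover differences of the size given here. The alternatives were each array left out, a block for the replicate number, arrays centred on their median or quantile normalized, a filter on dim genes, averaged probe sets, another variance prior, a threshold of 0.1 and a background at the 90th percentile. Centring together with the block was added after seeing the data.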

Additional observations from a re-analysis of the deposited data

How the results depend on the processing

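Of the 34 genes, 25 kept the sign of their difference under all alternatives run for them, 21 of these above 0 and 4 below, and 9 changed it under at least 1, none of them called. The count called higher, 0 on all arrays, was 5 with centred arrays, 4 with the prior that follows intensity, 3 at an adjusted p under 0.1, and 0 to 7 with an array left out; the count called lower was 0 to 1 with an array left out. Fits with an arm of 1 array assume that it varies like the other group. In them every gene of the group had the same SE, 0.50 without a WT array and 0.40 without a Hem1 KO array. Their calls therefore reflect the size of a difference only. The median over all genes also moved in these fits, from -0.18 to 0.21. With arrays left out, the medians ran from 0.14 to 0.64 for all 34 genes, from -0.11 to 0.58 for the transcription factors, from 0.19 to 0.68 for the stress regulators, from 0.07 to 0.74 for the transporters and from -0.16 to 0.46 for the secreted factors and receptors, and the latter was 0.60 where dim genes were dropped, since Stc2 was then not tested. Over all genes, the counts of 288 higher and 26 lower became 185 to 545 and 26 to 101 with an array left out, 174 and 8 without dim genes, 414 and 196 with the prior that follows intensity, 400 and 70 with centred arrays, and 314 and 16 after quantile normalization. At an adjusted p under 0.1 by limma, 345 of all genes were higher and 38 lower. The share of all genes called higher was 1.48% on all arrays as deposited, 2.05% with centred arrays and 2.12% with the prior that follows intensity. The cause of these changes was not tested. A background at the 90th percentile raised the number of the 34 genes above it from 29 to 32 per array to 31 to 33. The share of calls that were higher, 91.7%, was 67.9% with the prior that follows intensity and 85.1% with centred arrays. It was 75.7% with a block for the replicate number and 59.1% with centring and the block together. After quantile normalization it was 95.2%, and without dim genes 95.6%.

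Same-numbered arrays of the genotypes deviated together (r = 0.24 across genes, 2 pairs; a constant offset of an array does not enter r), and nothing in the labels ties the numbers to a litter or day. With the replicate number as a block, limma called 620 genes higher and 199 lower, and 7 of the 34 higher: Aldh1l2, Cth, Nupr1, Phgdh, Slc1a4, Slc7a5 and Vldlr. With centring and the block together the counts were 597 and 413, with the same 7 higher and 1 lower, Atf3 (-0.87, adjusted p = 0.032).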
